A study of Homo sapiens with 6 samples.

Results

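Interferon-stimulated genes are the set that vertebrate cells switch on when an interferon, a cytokine released on viral infection, reaches its receptor. Here the set was 39 named genes, taken as every probe set whose single gene symbol in the platform annotation was one of those names. Of them, 38 had 78 probe sets in the table, out of 19775 genes with a single-symbol probe set, and STAT2 was not analysed here. Expression was measured on 6 Affymetrix arrays. The cells were IMR32, an established line grown from a human neuroblastoma. The DMSO group held 3 arrays of cells given 0.1% DMSO, and the teriflunomide group 3 arrays of cells given teriflunomide at 118 µM, both for 24 h. Teriflunomide inhibits dihydroorotate dehydrogenase, a mitochondrial enzyme of pyrimidine synthesis, and the comparison asks how expression in these cells differed with the drug. The labels do not say whether the drug wells also held DMSO, nor whether the biological replicates were separate cultures, so the p-values rest on the spread among these arrays alone, and that spread may be technical.

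Type I interferons bind a receptor made of IFNAR1 and IFNAR2, whose kinases JAK1 and TYK2 phosphorylate a pair of STAT proteins. These join IRF9 and bind a promoter element called the ISRE, while interferon gamma acts through the GAS element. The genes so induced encode RNA sensors (IFIH1), RNA-binding and RNA-degrading proteins (the IFIT and OAS families, ISG20), membrane blocks to virus entry and exit (the IFITM family, BST2), the ubiquitin-like modifier ISG15 and antigen-processing proteins (TAP1). Many tumour lines keep a few of them on without interferon.

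Values are log2 intensities made by the authors with GCRMA, so a difference of 1 is a 2-fold change. The lowest value on every array was 2.18, called the floor here, and 44.8% to 44.9% of all probe sets lay within 0.1 of it. A gene was tested when a probe set was at or above its array's median (2.63 to 2.66) on at least 3 of the 6 arrays, and its brightest such probe set stood for it. Across all probe sets, Pearson's r was 0.998 to 0.999 within the groups and 0.989 to 0.990 between them. Of 13 neuroblastoma and sympathetic lineage genes with a probe set, 11 were tested and 2, TH and STMN2, were at the floor. Of the 11, 4 were called higher (36.4%, against 29.7% of all genes) and 3 lower (27.3%, against 28.9%). PHOX2A (0.76), GATA3 (0.35), ISL1 (0.22) and ELAVL4 (0.17) were higher. MYCN (-0.43), CHGA (-1.46) and DDC (-1.82) were lower. The mean level over the 13 was 9.10 to 9.27 on the DMSO arrays and 8.91 to 8.98 on the teriflunomide arrays. Of 10 blood and immune markers and 5 endothelial markers, 0 were tested, and their mean log2 level was 2.18 to 2.22 on every array. Of 7 fibroblast and epithelial markers 4 were tested, with a mean level over the 7 of 5.23 to 5.34 in DMSO and 5.51 to 5.55 with teriflunomide. LUM and COL1A1, matrix genes, were bright and rose by 0.61 and 0.94, while DCN, KRT5 and CDH1 were at the floor. For ACTB, the probe set at the 3' end exceeded the one at the 5' end, a gap that widens as RNA is shorter, by 1.36 ± 0.03 in the DMSO arrays and by 1.62 ± 0.07 in the others (mean ± SD on the log2 scale, 3 arrays each, exact permutation p = 0.1, two-sided, the smallest that 3 arrays against 3 allow). For GAPDH the same gap was 0.05 ± 0.01 and 0.06 ± 0.02 (exact permutation p = 0.4). The ACTB gap and the lineage and matrix genes moved alongside the changes below, and their part in the results was not tested.

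Because the interferon response is read through short promoter elements, the RefSeq promoters of the genes (assembly GRCh38.p14, 250 bases before to 50 after a start site) were searched first. At least 1 promoter was held for 29 of the 39 genes. The ISRE core was taken as GAAA, any 2 bases, then GAAA, on either strand, and 21 of the 29 genes had a match, against 4.38% of the 27305 genes in the promoter table. The GAS element was taken as TTCNNNGAA, which reads the same on both strands, and 10 of the 29 genes had a match, against 9.38% of all. The 2 motifs may overlap in a promoter, and ISRE core matches may overlap each other. A match is a description of letters, not a site shown to be bound. The stretches shown are those of genes that the results below turn on, written 5' to 3' along the gene's strand, with the match in capitals.

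The first set holds ISRE core matches of genes that rose, ISG15 at chr1:1013375-1013414 (plus strand), ISG20 at chr15:88638932-88638971 (plus strand), IFITM3 at chr11:320871-320910 (minus strand) and BST2 at chr19:17405736-17405775 (minus strand).
ISG15: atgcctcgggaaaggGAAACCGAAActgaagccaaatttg
ISG20: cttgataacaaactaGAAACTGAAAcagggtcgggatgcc
IFITM3: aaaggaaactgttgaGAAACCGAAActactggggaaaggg
BST2: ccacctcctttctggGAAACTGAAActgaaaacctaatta

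The second set holds the same core where the gene fell, IFIT5 at chr10:89414508-89414547 (plus strand, match on the opposite strand), or did not pass, IFI6 at chr1:27672261-27672300 (minus strand). It also holds 3 genes at the floor, IFI44L at chr1:78620360-78620399 (plus strand), PARP14 at chr3:122680795-122680834 (plus strand) and GBP1 at chr1:89065311-89065350 (minus strand, match on the opposite strand).
IFIT5: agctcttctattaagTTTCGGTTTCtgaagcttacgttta
IFI6: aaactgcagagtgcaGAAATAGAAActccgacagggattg
IFI44L: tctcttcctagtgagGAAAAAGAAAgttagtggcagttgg
PARP14: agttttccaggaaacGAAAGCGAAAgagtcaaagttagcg
GBP1: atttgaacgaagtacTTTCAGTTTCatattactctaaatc

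The third set holds GAS matches of 2 genes that rose and had no ISRE core match in this window, IFI35 at chr17:43006747-43006783 (plus strand) and IRF9 at chr14:24161187-24161225 (plus strand).
IFI35: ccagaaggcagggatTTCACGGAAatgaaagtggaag
IRF9: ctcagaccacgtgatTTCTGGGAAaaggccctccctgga

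An ISRE core match occurred both in genes that were tested and in genes under the filter. Of 13 tested genes with a promoter 9 had a match, and of 15 genes under the filter 12 had one. Of 6 genes that rose 4 had a match, and of 6 that were tested and did not pass 4 had one. For GAS the counts were 3 of 6 that rose and 2 of 6 that did not pass. Like IFI35 and IRF9, IRF1, which did not pass, and OAS1, under the filter, had a GAS match and no ISRE core match. No test was made of these small counts. The plot of match positions shows each gene.

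**Figure D1:**
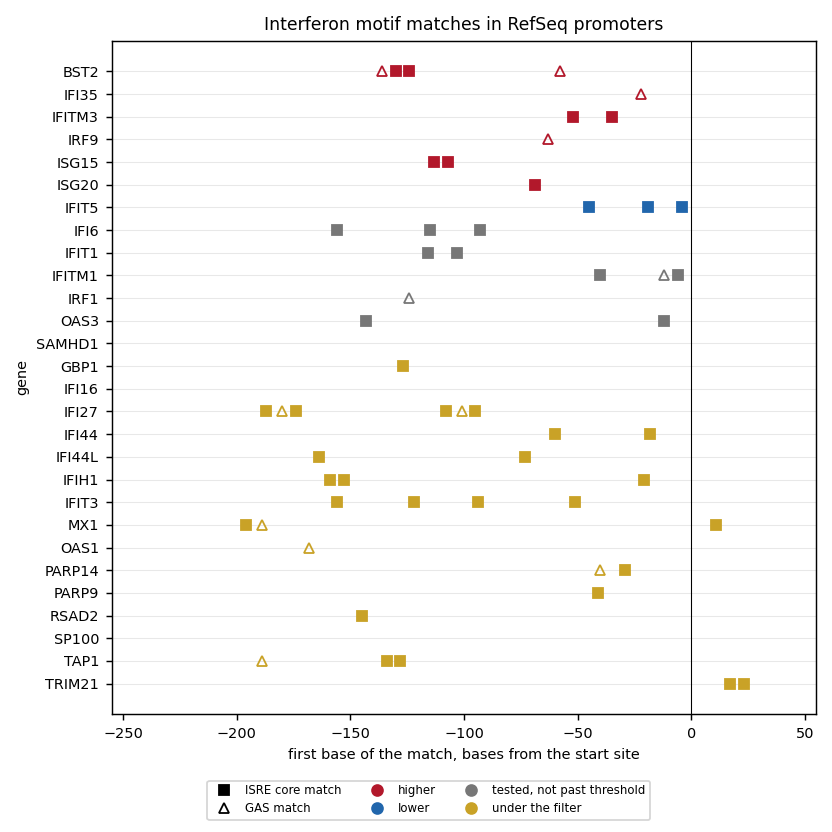
Positions of ISRE core matches (filled squares) and GAS matches (open triangles) in RefSeq promoters of 28 interferon-stimulated genes, in bases from the start site, coloured by the gene's call with teriflunomide. Matches occur in all 4 colours. IFI35 and IRF9 (called higher), IRF1 (not past threshold) and OAS1 (under the filter) show a GAS match and no ISRE core match.

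Of the 38 genes, 20 were not tested, since they stayed under the filter. All values of all probe sets lay within 0.1 of the floor for 13 of the 38 genes (34.2%), close to the 33% of all genes. These were the interferon regulator IRF7, the DNA sensor IFI16, IFI44, IFI44L, the RNA sensor IFIH1, the RNA-binding IFIT2 and IFIT3, the antiviral GTPases MX1, MX2 and GBP1, the peptide transporter subunit TAP1, the antibody receptor TRIM21 and the ADP-ribosyltransferase PARP14. A further 7 stayed under the filter. They were SP100, a nuclear body protein, OAS1, OAS2 and OASL of the oligoadenylate synthetase family, the radical SAM enzyme RSAD2, PARP9 and IFI27. The highest value of any of their probe sets was 2.55, for IFI27 on 1 teriflunomide array. At the level of probe sets, 42 of 78 lay within 0.1 of the floor on all 6 arrays (53.8%, against 37.1% of all single-symbol probe sets). A gene at the floor may still be expressed below what these arrays resolve, and a change there could not be detected.

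The other 18 genes (47.4%, against 60.7% of all genes) were tested, and 11 of these were at log2 5 or more on all 6 arrays. The levels had a gap. OASL, the highest gene under the filter, had a mean of 2.45 over the 6 arrays, and IFITM1, the lowest tested gene, had 3.23. None of the 18 passed the filter through 1 group alone, since at least 2 arrays of each group were at or above the median for every gene. The heat map of levels shows both blocks.

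**Figure D2:**
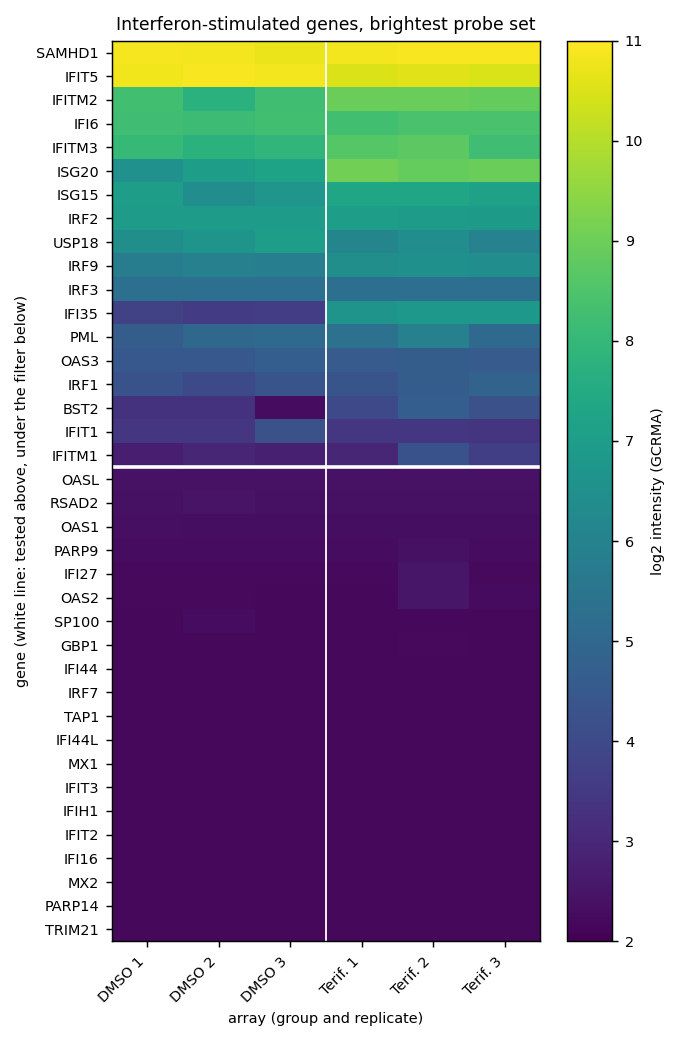
Log2 intensity (GCRMA) of the brightest probe set of 38 interferon-stimulated genes on each of the 6 arrays, ordered by mean. Above the white line are the 18 tested genes, from SAMHD1 (mean 10.86) to IFITM1 (mean 3.23), and below it 20 dark rows near the floor in both groups.

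Teriflunomide was compared with DMSO by limma over 11998 genes, with Benjamini-Hochberg adjustment over all of them and a threshold of 0.05. Of the 18 tested interferon-stimulated genes 7 rose (38.9%), where 29.7% of all tested genes were called higher. They were IFI35, ISG20, BST2, IFITM2, IFITM3, IRF9 and ISG15. Another 2 fell (11.1%), USP18 and IFIT5, where 28.9% of all genes were called lower, and 9 did not pass. The 9 called genes in all stand beside 58.6% of all tested genes called in either direction. Of the 18, 3 were called at least 2-fold higher, IFI35, ISG20 and BST2, where 5.24% of all genes were. BST2 was dim, with all 6 values under log2 5. Of the 18, 0 were called at least 2-fold lower, where 4.53% of all genes were. The median log2 change was 0.48 over the 18 genes and 0.0015 over all genes. With values under log2 5 raised to 5, the changes of IRF1, IFIT1, IFITM1, OAS3 and BST2 became 0. The 0.48 therefore depends in part on dim values. For all 9 called genes the 3 arrays of one group lay wholly above those of the other, 7 higher (33.9% of all genes) and 2 lower (33.1%). The shares are of 18 genes, so 1 gene is a large step in them, and they single nothing out about the set.

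**Figure D3:**
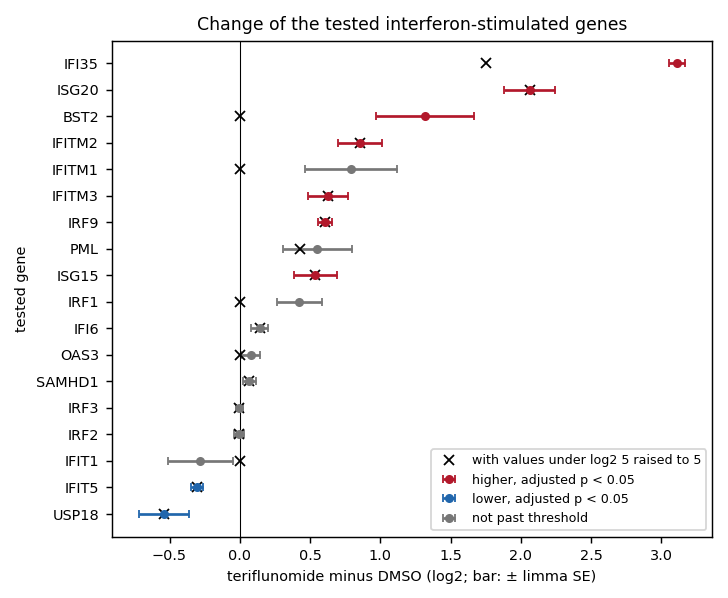
Log2 change (teriflunomide minus DMSO, bar ± limma SE) of the 18 tested interferon-stimulated genes, with black crosses for the change after values under log2 5 were raised to 5. IFI35 leads at 3.11 and has its cross at 1.75, ISG20 keeps 2.06, and the cross of BST2 lies at 0.

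Among regulators, the transcription factors IRF1, IRF2, IRF3 and IRF9 were tested, and IRF9 rose. IRF9, the DNA-binding subunit of the factor that binds the ISRE, read 5.79, 5.92 and 5.84 in DMSO and 6.46, 6.5 and 6.41 with teriflunomide. The groups did not overlap, and the change was 0.61 (SE 0.05, limma adjusted p = 0.000268), or 1.52-fold. A probe set that names both RNF31 and IRF9 changed by 0.15 (SE 0.09, adjusted p = 0.217 over probe sets by limma), which did not pass. IRF1, a factor of the interferon gamma response, read 4.25, 4.02 and 4.33 in DMSO and 4.33, 4.66 and 4.87 with teriflunomide. It was dim, its groups touched, and its change of 0.42 (SE 0.16) had an adjusted p of 0.0687 by limma, above the threshold. It passed with centring (adjusted p = 0.0447), quantile normalization (0.0391), trended and robust eBayes (0.0487) and without teriflunomide replicate 1 (0.57, adjusted p = 0.0207), while raising values under log2 5 to 5 left a change of 0 and the mean of its probe sets gave 0.17. Its second probe set, dimmer still, changed by -0.09 (SE 0.08).

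IRF2, an antagonist of IRF1, lay between 6.91 and 7.0 on the 6 arrays, with an SE of 0.03 for its difference. It read the same value, 6.94, on DMSO replicates 1 and 2 and on teriflunomide replicate 2. Its narrow range therefore does not show that the groups are alike. IRF3, the factor that activates interferon genes after RNA or DNA sensing, read 5.29 on 5 arrays and 5.30 on the other. A range that narrow, under 0.02 over 6 arrays, occurred in 2.68% of the 3361 single-symbol probe sets with a mean of 4 to 6. It occurred in 0.156% of the 16667 with a mean of 6 or more. The probe sets of OAS1 (2.34 to 2.35), OASL (2.45) and 1 of PML (3.06) were as flat, so a gene above the floor was not always one whose values varied between arrays.

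IFI35, an interferon-induced leucine zipper protein that forms a complex with NMI, had the largest change. Its single probe set read 3.73, 3.58 and 3.63 in DMSO and 6.67, 6.79 and 6.80 with teriflunomide. The 3 teriflunomide arrays sat far above the 3 DMSO arrays, and spread little. The change was 3.11 (SE 0.06, limma adjusted p = 9.77e-06), or 8.64-fold. DMSO values were dim, and with values under log2 5 raised to 5 the change was 1.75, still past the threshold.

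ISG20, an exonuclease that degrades single-stranded RNA, rose on both of its probe sets. The brighter one read 6.54, 7.02 and 7.22 in DMSO and 9.09, 8.89 and 9.0 with teriflunomide. The change was 2.06 (SE 0.18, limma adjusted p = 0.000378), or 4.18-fold, and every array was above log2 5. The other read 6.58, 6.96 and 6.83 in DMSO and 8.49, 8.65 and 8.68 with teriflunomide, a change of 1.82 (SE 0.11). Both probe sets placed the groups more than 1 log2 unit apart with no overlap.

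**Figure D4:**
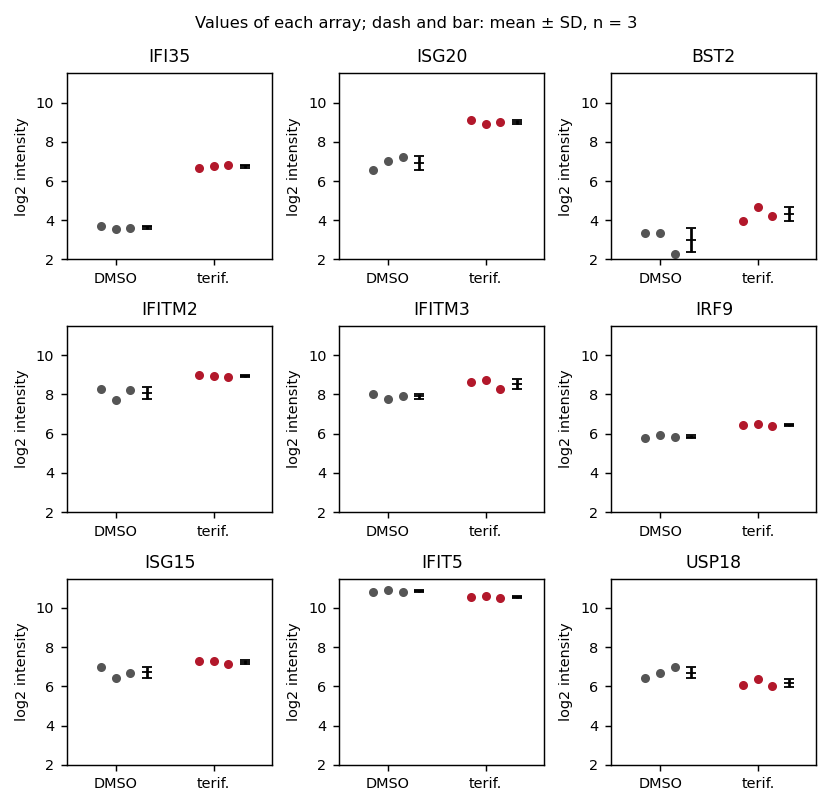
Log2 intensity of the 9 called interferon-stimulated genes on each array (points) with mean ± SD (n = 3) beside them, DMSO in grey and teriflunomide in red. The groups do not overlap in any panel. The gap is wide for IFI35 and ISG20, small for ISG15, IFITM3 and IFIT5, and smallest for USP18.

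The IFITM proteins sit in cell and endosome membranes and hinder virus entry. IFITM2 read 8.28, 7.74 and 8.24 in DMSO and 8.99, 8.95 and 8.87 with teriflunomide, a change of 0.85 (SE 0.16, limma adjusted p = 0.00548). IFITM3 read 8.04, 7.76 and 7.91 in DMSO and 8.62, 8.72 and 8.26 with teriflunomide, a change of 0.63 (SE 0.14, limma adjusted p = 0.0123). In both, every teriflunomide array was above every DMSO array but not far from it. Their probe sets carry the _x_ suffix that marks possible cross-hybridisation, and the genes are near-identical, so the 2 are not separate evidence and which of them changed is uncertain. IFITM1 was dim, at 2.76, 2.95 and 2.80 in DMSO and 2.95, 4.26 and 3.68 with teriflunomide. Its change of 0.79 (SE 0.33, limma adjusted p = 0.0873) did not pass, was 0 with values under log2 5 raised to 5, and passed without teriflunomide replicate 1 (1.13, adjusted p = 0.00966) and with trended and robust eBayes (adjusted p = 0.0473).

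BST2, or tetherin, holds budding virus particles at the cell surface. It read 3.33, 3.33 and 2.29 in DMSO and 3.98, 4.70 and 4.22 with teriflunomide. All 6 values were under log2 5, and 1 DMSO array was near the floor. The change was 1.32 (SE 0.35, limma adjusted p = 0.0224). It became 0 with values under log2 5 raised to 5, and the call was lost without teriflunomide replicate 2 (1.12, adjusted p = 0.071) or replicate 3 (1.36, adjusted p = 0.0581) and with no filter (adjusted p = 0.0743).

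ISG15, a ubiquitin-like protein that is joined to other proteins, and USP18, the protease that removes it and dampens receptor signalling, were called in opposite directions. ISG15 read 7.01, 6.43 and 6.69 in DMSO and 7.30, 7.29 and 7.15 with teriflunomide. The groups were close, and the change was 0.54 (SE 0.15, limma adjusted p = 0.0271). The call was lost with no filter (adjusted p = 0.0841), without DMSO replicate 3 (0.0785) and without each teriflunomide replicate (0.0834, 0.0829 and 0.0522 for replicates 1, 2 and 3). USP18 read 6.43, 6.66 and 7.01 in DMSO and 6.08, 6.4 and 6.0 with teriflunomide, where the highest teriflunomide array lay just under the lowest DMSO array. Its change was -0.54 (SE 0.18, limma adjusted p = 0.046). The call was lost without DMSO replicate 2 (0.0987) or 3 (0.0985), without teriflunomide replicate 1 (0.126) or 3 (0.13), with no filter (0.129), with the replicate number as a block (0.0789) and with values under log2 5 raised to 5 (0.0733). USP18 did not pass among single probe sets either (adjusted p = 0.059 over probe sets by limma), and a near-identical copy, USP41, may share its probes. The difference between the 2 genes' changes was not tested.

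The IFIT proteins bind foreign RNA, and IFIT5 was the bright member. Its brighter probe set read 10.82, 10.91 and 10.83 in DMSO and 10.54, 10.60 and 10.50 with teriflunomide, a fall of 0.31 (SE 0.04, limma adjusted p = 0.00187). The other read 8.29, 8.43 and 8.30 in DMSO and 7.32, 7.52 and 7.55 with teriflunomide, a change of -0.88 (SE 0.08). Both probe sets gave lower values on every teriflunomide array, by different amounts, and with the mean of the 2 the change was -0.59. IFIT1 read 3.44 on 4 arrays, 4.25 on DMSO replicate 3 and 3.40 on teriflunomide replicate 3, and its change of -0.28 (SE 0.23) did not pass. With IFIT2 and IFIT3 at the floor, the family had a single member above log2 5.

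The remaining tested genes did not pass. SAMHD1, which hydrolyses deoxynucleotides and so restricts retroviruses, was bright on every array, at 10.88, 10.84 and 10.75 in DMSO and 10.83, 10.93 and 10.92 with teriflunomide. Its change was 0.07 (SE 0.05, limma adjusted p = 0.277), and its other 4 probe sets that passed the filter changed by -0.12 to 0.01. IFI6, a mitochondrial protein gene, read 8.26, 8.16 and 8.26 in DMSO and 8.26, 8.42 and 8.42 with teriflunomide, a change of 0.14 (SE 0.06, adjusted p = 0.0893 by limma) that passed without teriflunomide replicate 1 (0.20, adjusted p = 0.025). OAS3, the one oligoadenylate synthetase above the filter, lay between 4.47 and 4.68, with a change of 0.08 (SE 0.07) that passed without DMSO replicate 3 (0.15, adjusted p = 0.0375 by limma). PML, the scaffold of nuclear bodies, read 4.64, 5.0 and 5.08 in DMSO and 5.36, 5.93 and 5.08 with teriflunomide. Its change was 0.55 (SE 0.25, limma adjusted p = 0.105), and another of its probe sets changed by 0.06 (SE 0.20). Of its 10 probe sets 4 passed the filter. For such dim genes the SE is wide against the change, and these values do not show that the groups are alike.

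Counted by probe set, 28 of the 78 passed the filter, of which 8 were called higher and 2 lower with adjustment over 27290 probe sets, where 23.7% of probe sets were called higher and 25.2% lower. The second IFIT5 and ISG20 probe sets account for the genes with more than 1 call, while USP18 was the gene that dropped out.

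The genes around the response were taken from lists of interferons, receptors, sensors, brakes, antigen presentation and other interferon-stimulated genes. Of 9 interferon genes 8 had a probe set, and all 8, IFNB1 among them, lay at the floor on all 6 arrays (highest value 2.18). None of these 8 was thus detectable in either group. Other interferon genes were not analysed here. CGAS and STING1, the cytosolic DNA sensor and its adaptor, TLR3, DHX58, IKBKE and AIM2 were at the floor as well. Of the 6 sensor and adaptor genes that were tested, 1 was called higher (29.7% of all genes were), 2 lower (28.9% of all genes) and 3 did not pass. TRAF6 was higher (0.58, SE 0.10), TRAF3 lower (-0.52, SE 0.06) and RIGI lower (-0.24, SE 0.07). TBK1 (-0.05) and TICAM1 (0.07) did not pass. A second TRAF6 probe set changed by -0.20 and a second TRAF3 one by 0.11, neither past the threshold. The TRAF6 call was lost with the mean of its probe sets (adjusted p = 0.0725), the TRAF3 change was -0.20 on that mean, and the RIGI call was lost in 7 of 15 alternatives. MAVS, the mitochondrial adaptor of RNA sensing, changed by 0.14 (SE 0.07, limma adjusted p = 0.142), and passed without DMSO replicate 1 (0.20, adjusted p = 0.028).

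Among 8 tested receptor and kinase genes, 5 were called higher (29.7% of all genes were), 2 were called lower (28.9% of all genes) and 1 did not pass. Their median log2 change was 0.37. IFNAR1, a chain of the type I receptor, read 7.58, 7.50 and 7.65 in DMSO and 8.68, 8.80 and 8.88 with teriflunomide, a change of 1.21 (SE 0.07, limma adjusted p = 9.64e-05). A second bright IFNAR1 probe set changed by 1.05. Its dimmer probe sets changed by 0.54 and 0.79, neither past the threshold. IFNAR2, the partner chain, read 8.46, 8.38 and 8.54 in DMSO and 7.79, 7.70 and 8.08 with teriflunomide, a change of -0.60 (SE 0.11, limma adjusted p = 0.00534). Its other probe sets changed by -0.52 and, not past the threshold, 0.06, and the mean of all gave -0.35. The 2 chains of the type I receptor thus gave opposite calls. For the interferon gamma receptor IFNGR1 rose by 0.47 (SE 0.04) and IFNGR2 changed by -0.43 (SE 0.05). IL10RB, shared with the lambda receptor, rose by 0.70, JAK1 by 0.48 and TYK2 by 0.28. The TYK2 adjusted p was 0.0448 by limma, and 8 of 16 alternatives lost the call. JAK2 was dim and changed by -0.06 (SE 0.06).

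Among 10 brakes of interferon signalling, 3 were called lower (28.9% of all genes were) and 2 higher (29.7% of all genes), and 5 missed the threshold. The median was 0.04. TRIM27 fell by 0.94 (SE 0.06), with its other probe sets at -0.61 and -0.94. PIAS2 changed by -0.31 and PIAS4 by 0.31, both SUMO ligases. PIAS2 had 8 probe sets past the filter, which ran from -0.88 to 0.21.

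Of 11 tested antigen presentation genes 9 rose (81.8%, against 29.7% of all genes). One other fell, another missed the threshold, and the median was 0.50. This list, like the members and the other lists, was written with the results of these arrays in part known. No test over the list was made. ERAP2 and ERAP1, peptidases that trim peptides for MHC class I, rose by 1.71 (SE 0.26) and 0.90 (SE 0.05). ERAP2 read 3.91, 4.75 and 4.42 in DMSO and 6.43, 5.96 and 5.81 with teriflunomide, and raising values under log2 5 to 5 left 1.07 of the change. With plain-suffix probe sets preferred, ERAP1 rose by 1.47, on a dim probe set that went from 2.24, near the floor, to 3.71. B2M, the light chain of class I, was bright at 14.47, 14.44 and 14.53 in DMSO and 14.85, 14.86 and 14.79 with teriflunomide, and rose by 0.35 (SE 0.04, limma adjusted p = 0.000959), or by 0.84 on a dimmer probe set with a plain suffix (5.54 to 6.38). HLA-B rose by 0.50 and HLA-C by 0.60, on probe sets of the _x_ type that HLA genes may share. HLA-F was also called higher on such a probe set, so these HLA genes may not be separate evidence. Other HLA-C probe sets changed by 0.73, 0.42 and 0.33, of which those at 0.42 and 0.33 did not pass. PSMB10, an immunoproteasome subunit, changed by -0.63 (SE 0.05). PSMB8 and PSMB9, the other 2 immunoproteasome subunits, and NLRC5 and CIITA, the activators of MHC genes, were at the floor.

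Of 38 other interferon-stimulated genes 34 had a probe set and 21 were tested. Of these 9 rose (42.9%, against 29.7% of all genes) and 5 fell (23.8%, against 28.9%), 7 missed the threshold, and the median was 0.14. NMI, the partner of IFI35, read 4.35, 3.91 and 4.31 in DMSO and 5.79, 5.99 and 5.63 with teriflunomide, a change of 1.61 (SE 0.15, limma adjusted p = 0.000475). It was 0.80 with values under log2 5 raised to 5. HERC6, a HECT-domain ligase, read 4.61, 4.86 and 4.84 in DMSO and 6.21, 6.53 and 6.21 with teriflunomide, a change of 1.55 (SE 0.12). GBP2, a guanylate-binding protein, rose by 1.04 (SE 0.26) from 3.81 to 4.85, and the call was lost with values under log2 5 raised to 5 (0.14), with no filter (adjusted p = 0.0603) and without DMSO replicate 2 (0.0574) or 3 (0.0511). TRIM14, an adaptor in antiviral sensing, fell by 0.78 (SE 0.06) on a bright probe set and by 0.86 on the next, and changed by -0.16 on a dim one. EIF2AK2, the RNA-activated kinase PKR, changed by 0.14 (SE 0.08) and ADAR, an RNA-editing enzyme, by -0.03 (SE 0.05), and neither passed. XAF1, CXCL10, CXCL11, DDX60, TRIM22, EPSTI1, SAMD9L, RTP4, APOL6, GBP4 and GBP5 were at the floor in both groups. These are 11 of 34 genes, a share close to the 33% of all genes at the floor.

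**Figure D5:**
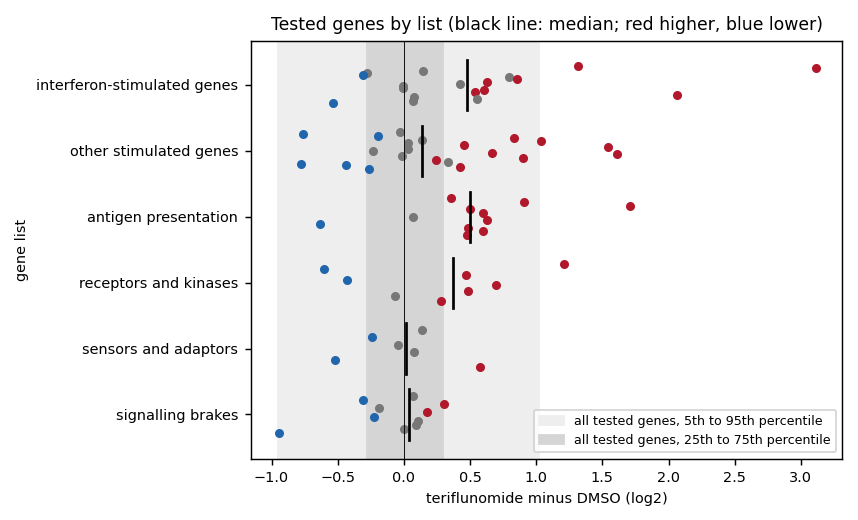
Log2 change (teriflunomide minus DMSO) of each tested gene by list, with the list's median as a black line, red and blue points for genes called higher and lower, and grey bands for all 11998 tested genes. The median is 0.50 for antigen presentation, 0.48 for the interferon-stimulated genes, 0.37 for receptors and kinases and 0.14 or less for the others, and each list holds genes called in both directions. Dim genes are included in the medians.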

How the data were processed

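Each deposited value is the log2 intensity of a probe set on an array. The authors used GCRMA, per the submitters' processing notes, and its version is not given in the sources used here. GCRMA models background from probe sequence and brings arrays to a common distribution, so dim values depend on that model and a shift shared by all genes would not show. Of 54675 probe sets 41097 had 1 gene symbol in the platform annotation, 1801 several and 11777 none, and the last 2 kinds were left out of the gene tests. Genes passing the filter were compared with lmFit and eBayes in limma (version 3.58.1, R 4.3.3), two-sided, with no covariates and no further normalization. Single probe sets were fitted the same way without control probe sets. The fit was also run on simulated data with normal noise, few changed genes and no floor. That setting differs from these arrays, so it lends no support to the calls here. Motif searches and figures used Python 3.11.15. Arrays have no read depth, and 3 per group limit the precision.

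Every one of the 39 genes was accounted for. From each other list the text names the 3 called genes with the largest change, the one with the largest opposite change and a set of genes given by name. The members and lists were chosen with earlier results of these data known. The alternatives were to drop the filter or move it to the 75th percentile, to centre or quantile-normalize the arrays, to raise values under log2 5 to 5, to average a gene's probe sets or prefer a plain suffix, to weight arrays, to use trended and robust eBayes, to block on the replicate number, and to leave out each array.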

Additional observations from a re-analysis of the deposited data

Results flagged for a closer look

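Probe sets that name several genes were outside the comparisons, and 2 of those naming a listed gene were higher with teriflunomide than in the DMSO arrays. A probe set shared by IFITM2 and IFITM1 changed by 0.82 (SE 0.12, limma adjusted p over probe sets = 0.00297), from 2.54 ± 0.05 to 3.36 ± 0.22 (log2 mean ± SD, n = 3), all dim. A probe set shared by MIR7703 and PSME2, a proteasome activator subunit, changed by 0.28 (SE 0.04), from 11.87 ± 0.03 to 12.15 ± 0.05. Another, shared by RNF31 and IRF9, changed by 0.15 (SE 0.09, limma adjusted p over probe sets = 0.217) and did not pass.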

How the results depend on the processing

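The 7 higher and 2 lower interferon-stimulated genes became 3 and 1 with the filter at the 75th percentile, where 6 of them were tested. The 2 lower became 1 with no filter, with values under log2 5 raised to 5 and with the replicate block, because USP18 lost its call. Leaving out 1 array gave 5 to 9 higher and 1 to 2 lower. Of probe sets, 8 higher became 5 with no filter and 4 at the 75th percentile, and 5 to 8 with 1 array left out. Scaling (centring or quantile) turned no called gene and gave 8 higher, with IRF1 added. Same-numbered arrays deviated together with r of 0.044, 0.099 and -0.09, so the numbers were not treated as pairs; the block left 7 higher. In the other lists, the 75th percentile filter gave 5 higher in place of 9 other stimulated genes and 4 in place of 9 antigen presentation genes; a plain suffix gave 3 lower in place of 5 and 2 in place of 1. Sensors and adaptors ranged from 0 to 2 higher and 1 to 2 lower. Signal near the floor limits every gene under log2 5.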

Other observations

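The enzymes that attach ISG15 to proteins, looked at after their values were seen, were measurable in part. UBE2L6, the conjugating enzyme, rose by 0.43 (SE 0.07) and HERC5, a ligase, by 0.46 (SE 0.05), both limma calls over all genes. TRIM25, another ligase among the other interferon-stimulated genes, was called lower, with a change of -0.44 (SE 0.05). The activating enzyme UBA7 had only probe sets shared with MIR5193, with means of 2.26 to 2.42 in both groups. N4BP1, an RNA-degrading restriction factor, rose by 0.67 (SE 0.06), PARP12 by 0.90 (SE 0.08) and PLSCR1, a scramblase, by 0.25 (SE 0.04). CMPK2, a mitochondrial nucleotide kinase, changed by -0.76 (SE 0.07). DTX3L and PARP9 encode partner proteins, and DTX3L had a log2 mean ± SD of 6.61 ± 0.10 over the DMSO arrays and 7.44 ± 0.11 over the 3 teriflunomide arrays, while PARP9 stayed under the filter at 2.31 and 2.35. These genes were also chosen after their values were seen.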
